A study of Mus musculus with 24 samples.

Results

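The 10 genes described here encode the cyclins, cyclin-dependent kinases (CDKs) and CDK inhibitors that act in the G1 phase of the cell cycle. They are Ccnd2, Ccnd3, Ccne1, Ccne2, Cdk2, Cdk4, Cdk6, Cdkn1a, Cdkn1b and Cdkn2c, chosen by symbol for their function, with earlier results of these data known. All 10 had counts and passed the filter on low counts, among 10566 genes tested of 25030 with a count. RNA came from splenic Tconv CD4+ cells (CD4+ CD25-), selected with magnetic beads from conplastic mice, in which all animals share the C57BL/6J nuclear genome and differ in their mitochondrial DNA (mtDNA). The mtDNA B6 groups carry the mtDNA of C57BL/6J and have the genotype WT in the labels, and the mtDNA NZB groups carry that of the NZB strain. Each haplotype was measured in 6 resting and 6 activated libraries. Activation was for 72 h with CD3/CD28 beads, which stimulate the T cell receptor together with a costimulatory receptor, and with IL-2, a growth factor of T cells. Most experiments used males of 2 to 3 months, but the age and sex of the mice behind these libraries, and whether the resting cells were kept in culture, are not given in the sources used here. Neither is whether libraries of a group came from separate mice, so that p-values measure the spread between these libraries. A sample size of 3 to 5 per model is stated for the sequencing, fewer than the 6 libraries of each group used here, and what it counts is not given. The comparisons ask how activation changes the G1 regulators in each haplotype and whether the haplotypes differ.

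A resting T cell is held before S phase and leaves that state when its antigen receptor and costimulatory receptors are engaged. D-type cyclins bind CDK4 and CDK6, and these kinases phosphorylate the retinoblastoma protein RB, which otherwise holds E2F transcription factors in check. E2F activity then raises the E-type cyclins, which activate CDK2 and carry the cell into S phase. Inhibitors of the INK4 class, among them the product of Cdkn2c, bind CDK4 and CDK6 alone, whereas those of the CIP/KIP class, the products of Cdkn1a and Cdkn1b, bind cyclin-CDK complexes. Much of this control acts on the proteins, which were not measured.

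The promoter entries of RefSeq (build GRCm38.p6, 250 bases before to 50 bases after a transcription start) were searched on both strands for the letters of a strong E2F motif (TTTCCCGC, TTTGGCGC, TTTCGCGC or TTTGCCGC) and of a FOXO motif (GTAAACA), because E2F acts on G1 genes and FOXO factors act in resting T cells. Entries were found for 8 of the 10 genes, all but Ccnd2 and Ccne2. The E2F letters stood in 1 of these 8 genes, Cdk2, and in 2.60% of all 27025 genes with an entry (2.26% of 32851 windows, since some genes have several). The FOXO letters stood in 1 gene, Ccnd3, and in 4.05% of all genes (3.65% of windows). These stretches are shown with the motif in capitals, on the strand of the gene, because they are the matches among the 10 genes. The Cdk2 stretch lies on chromosome 10 from 128705173 to 128705202 on the minus strand, and the Ccnd3 stretch on chromosome 17 from 47504801 to 47504825 on the plus strand, both in GRCm38.p6.
Cdk2: aaccaggaactGCGGGAAAgttgtgcagct
Ccnd3: ggtctacTGTTTACttcctgggcag
Both are the motif read on the opposite strand. A match is a description of letters, and a gene without one only lacks these letters in this window.

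Libraries held 2615906 to 5456681 unique molecular identifier (UMI) counts in resting B6 cells, 2430562 to 4452880 in activated B6 cells, 51409 to 3662366 in resting NZB cells and 641467 to 6449395 in activated NZB cells. Levels are given as UMI counts per 1000000 of the effective library size, that is, the library total after TMM scaling (CPM). Resting NZB replicate 2 was the library of 51409 counts, in which 1 count is worth 16.9 CPM. There 5 of the 10 genes had a count of 0 (Ccne1, Ccne2, Cdk6, Cdkn1a and Cdkn2c), which allows a level of up to 50.8 CPM (3 counts, counting error only). Resting NZB replicate 6 held 22978 CPM of granulocyte and precursor genes, against 463 to 2608 CPM in the other resting NZB libraries. Results are also given without these and activated NZB replicate 6, a set of 3 libraries taken from an earlier account of these data. Activated NZB replicate 6 had the lowest level of its group for Ccnd3, Ccne1, Cdk2, Cdkn1a and Cdkn2c, so leaving it out raises the activated NZB level of these genes by construction, and calls gained that way support no rise. The reads per UMI divided the libraries into 3 sets of 8, which the groups do not share evenly: the set of 1.88 to 1.96 reads per UMI held 5 activated and 0 resting B6 libraries, and that of 2.68 to 2.80 held 4 resting NZB libraries and 0 activated B6 libraries. All 8 T cell markers were counted in every group, with summed levels of 4536 to 8635 CPM.

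On activation of B6 cells, 8 of the 10 genes rose and 1 fell (edgeR's quasi-likelihood test, adjusted p of at most 0.05 over all genes tested). Among all genes tested, 22.4% rose and 24.5% fell. The genes that rose were Ccnd2, Ccnd3, Cdk4, Cdk6, Ccne1, Ccne2, Cdkn1a and Cdkn2c, the gene that fell was Cdkn1b, and Cdk2 did not pass the test. In NZB cells 6 rose (Ccnd2, Ccnd3, Cdk4, Cdk6, Ccne1 and Cdkn2c) and Cdkn1b fell, where 25.2% of all genes rose and 28.4% fell. In B6 cells 5 of the 10 were called higher by DESeq2 (8.55% of all genes with a count) and 4 at a log2 fold change of at least 1 (7.06% of all genes tested). Without the 3 libraries 9 of the 10 were called higher in both haplotypes (23.8% of all genes in B6 cells and 24.5% in NZB cells). The NZB calls gained were those of Ccne2, Cdk2 and Cdkn1a. Resting NZB replicate 6, among the libraries left out, was the highest resting NZB library for each of them. Leaving it out enlarges their rise by construction, so these calls support no rise. The NZB estimates without the 3 libraries, on the log2 scale, were 0.92 for Ccnd2, 1.03 for Ccnd3, 1.63 for Cdk4, 1.71 for Cdk6, 2.63 for Ccne1, 2.55 for Cdkn2c and -2.02 for Cdkn1b. The median log2 fold change of the 10 genes was 0.82 in B6 cells and 1.06 in NZB cells, and over all genes tested -0.03 and -0.06. For 4 genes, Ccnd2, Cdk4, Cdkn1a and Cdkn2c, every activated B6 library lay above every resting one, which held for 15.4% of all genes, and for Cdkn1b every activated library lay below, as for 16.4% of all genes. In NZB cells the levels did not overlap for Ccne1, Cdk4 and Cdkn2c, which were higher (11.9% of all genes), and for Cdkn1b, which was lower (6.95%). For Ccne1 and Cdkn2c the small resting NZB library held no count, which does not settle where its level lay. In bulk RNA, fewer cells of a type and less RNA per cell cannot be told apart.

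**Figure D1:**
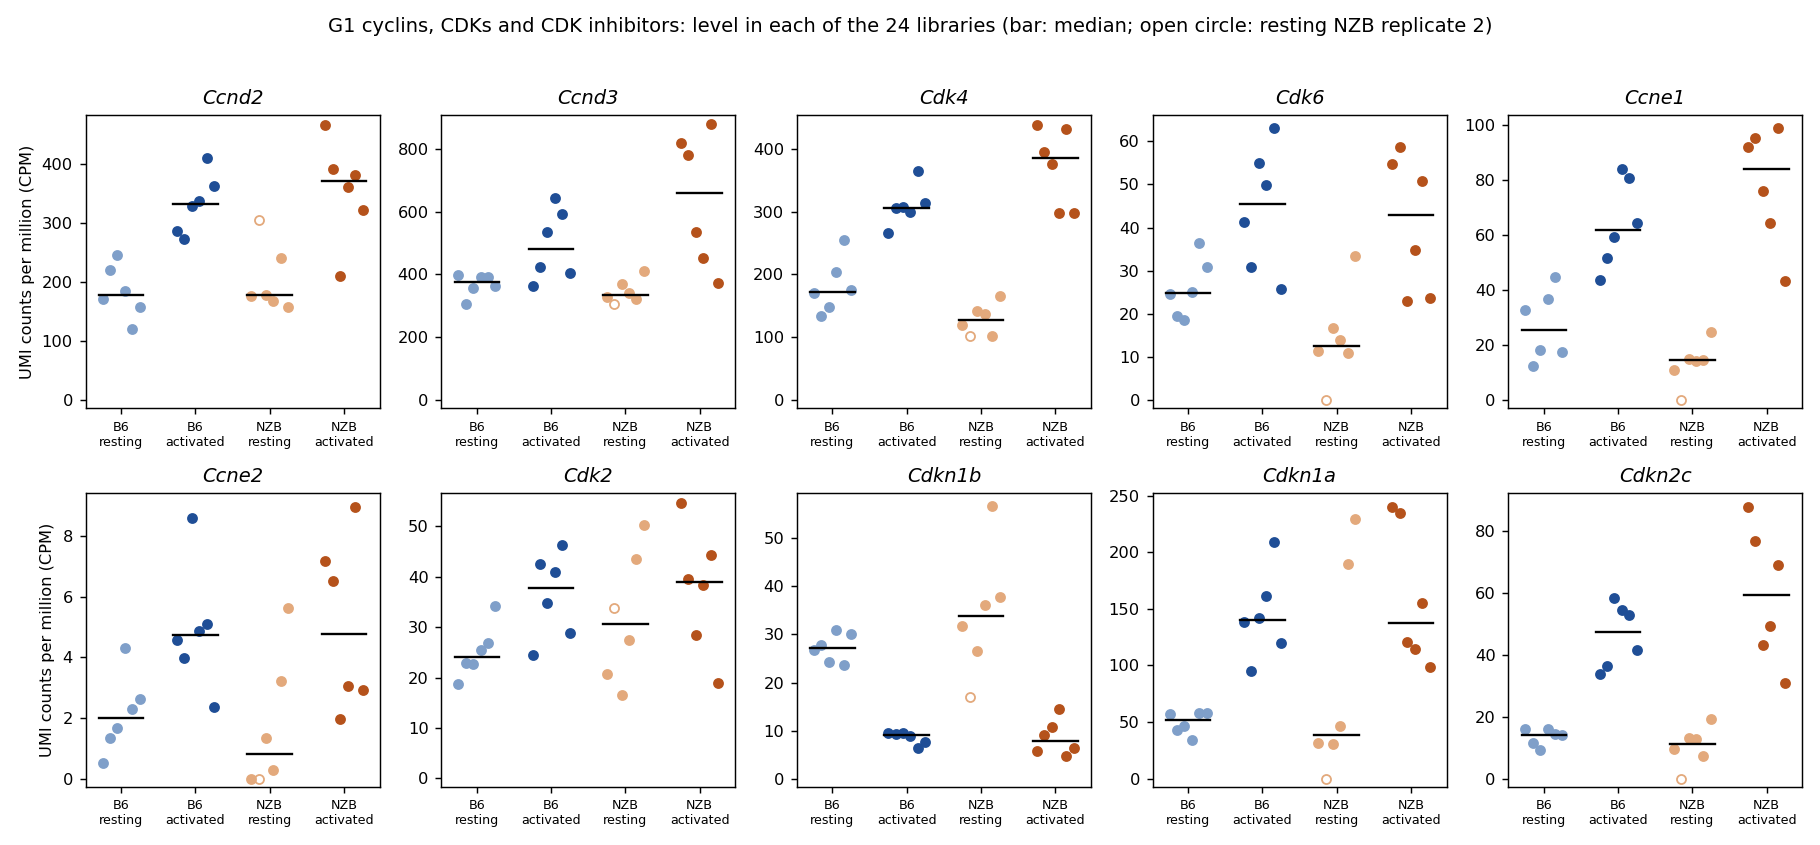
Level in CPM (linear axis, scaled for each gene) in each of the 24 libraries, with the group median as a bar and resting NZB replicate 2 as an open circle. The activated groups lie above the resting ones without overlap for Cdkn2c and Cdk4, and below them for Cdkn1b, in both haplotypes.

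The D-type cyclins measured were Ccnd2 and Ccnd3, which encode cyclin D2 and cyclin D3. Ccnd2 stood at 120 to 245 CPM in resting B6 cells (median 178) and at 273 to 411 CPM in activated ones (median 333). In NZB cells it stood at 159 to 305 CPM at rest (median 177) and at 210 to 466 CPM after activation (median 371). The groups of B6 libraries did not overlap, and those of NZB libraries did, through activated replicate 3 at 210 CPM and resting replicate 5 at 241 CPM as well as the small resting library. Ccnd2 rose by a log2 fold change of 0.86 ± 0.17 (SE, n = 6 and 6; adjusted p = 0.000236 by edgeR) in B6 cells and 0.88 ± 0.18 (adjusted p = 0.000243 by edgeR) in NZB cells, the closest pair of responses among the 10 genes.

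Ccnd3 stood at 305 to 399 CPM in resting B6 cells (median 377) and at 364 to 644 CPM in activated ones (median 480), and the ranges overlapped. Its NZB levels were 305 to 412 CPM at rest (median 335) and 373 to 879 CPM after activation (median 658), with only activated replicate 6 within the resting range. The log2 fold change of Ccnd3 was 0.43 ± 0.17 (adjusted p = 0.0461 by edgeR) in B6 cells, the smallest of the changes called there, and 0.87 ± 0.18 (adjusted p = 0.000231 by edgeR) in NZB cells. With the replicate block by label number the NZB change was 0.53 and was not called (adjusted p = 0.0510 by edgeR). The call in B6 cells was lost when any of 11 single libraries was left out, with adjusted p by edgeR from 0.0239 to 0.129 over the 24 such fits, and in 7 of 11 other fits: DESeq2 (adjusted p = 0.0866), the stricter filter, the second count table, both replicate blocks and both fits with the library set as a term (adjusted p from 0.0526 to 0.182).

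Cdk4 and Cdk6 encode the kinases that the D-type cyclins activate. Cdk4 ranged from 134 to 255 CPM in resting B6 cells (median 173) and from 266 to 365 CPM in activated ones (median 306). NZB libraries held 102 to 166 CPM of Cdk4 at rest (median 128) and 298 to 437 CPM after activation (median 385). Every activated library lay above every resting library of both haplotypes. On the log2 scale Cdk4 rose by 0.77 ± 0.14 (adjusted p = 9.5e-05 by edgeR) in B6 cells and 1.50 ± 0.15 (adjusted p = 1.45e-08 by edgeR) in NZB cells, a rise of 1.71-fold and 2.82-fold. Within the sets of like reads per UMI, the log2 difference in Cdk4 was 1.17 in the set that held both B6 states (4 resting libraries and 1 activated) and 1.33 to 1.61 in the sets of NZB libraries. The NZB values leave out the small resting replicate 2.

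Cdk6 was measured at lower counts, 0 to 246 per library. It ranged from 18.6 to 36.3 CPM in resting B6 cells (median 24.9) and from 25.8 to 63.0 CPM in activated ones (median 45.5). The NZB range of Cdk6 was 0 to 33.3 CPM at rest (median 12.7) and 22.9 to 58.7 CPM after activation (median 42.8). The groups overlapped in both haplotypes, in NZB cells through resting replicate 6 alone, which held 33.3 CPM against 0 to 16.8 CPM in the other resting NZB libraries. Cdk6 rose by a log2 fold change of 0.77 ± 0.28 (adjusted p = 0.0235 by edgeR) in B6 cells and 1.23 ± 0.31 (adjusted p = 0.00156 by edgeR) in NZB cells. The call in B6 cells was lost without activated replicate 3 (adjusted p = 0.0507), activated replicate 5 (adjusted p = 0.0690) or resting replicate 2 (adjusted p = 0.0526), all by edgeR, and in DESeq2 (adjusted p = 0.0534). With the replicate block by label number Cdk6 was called in neither haplotype. Its log2 fold change was then 0.63 in B6 cells (adjusted p = 0.103 by edgeR) and 0.78 in NZB cells (adjusted p = 0.0998 by edgeR).

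Ccne1 and Ccne2 encode cyclin E1 and cyclin E2, the partners of CDK2 at the entry into S phase. Ccne1 ranged from 12.6 to 44.8 CPM in resting B6 cells (median 25.4) and from 43.5 to 83.9 CPM in activated ones (median 61.9). In NZB cells it ranged from 0 to 24.9 CPM at rest (median 14.5) and from 43.2 to 98.8 CPM after activation (median 84.0). The NZB groups did not overlap, and the B6 groups overlapped by 1 library on each side (resting replicate 5 and activated replicate 1). The resting NZB value of 0 is that of the small library and allows up to 50.8 CPM. The other resting NZB libraries held 11.0 to 24.9 CPM. Ccne1 rose by a log2 fold change of 1.22 ± 0.26 (adjusted p = 0.000433 by edgeR) in B6 cells and 2.30 ± 0.30 (adjusted p = 5.59e-07 by edgeR) in NZB cells.

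Ccne2 was the least counted of the 10 genes, with 0 to 29 counts per library. It ranged from 0.499 to 4.31 CPM in resting B6 cells and from 2.38 to 8.59 CPM in activated ones. Resting NZB libraries held 0 to 5.62 CPM of Ccne2 and activated ones 1.96 to 8.98 CPM, and the groups overlapped in both haplotypes. Its log2 fold change of 1.25 ± 0.52 in B6 cells (adjusted p = 0.0496 by edgeR) was called and that of 1.32 ± 0.59 in NZB cells (adjusted p = 0.0596 by edgeR) was not. Neither call is stable at this depth. In B6 cells it was lost in 15 of the 24 fits that left out 1 library. It held in only 2 of 10 other fits, with adjusted p = 0.136 in DESeq2 and up to 0.308 by edgeR. In NZB cells it was gained without resting replicate 6 (log2 2.16, adjusted p = 0.00565 by edgeR), resting replicate 5, or activated replicates 3 or 6. Resting replicate 6 was the highest resting NZB library for Ccne2 (5.62 CPM), so leaving it out enlarges the rise by construction.

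Cdk2, the kinase partner of the E-type cyclins, was called in neither haplotype. It ranged from 18.7 to 34.2 CPM in resting B6 cells and from 24.4 to 46.3 CPM in activated ones, with medians of 24.1 and 37.8. For NZB libraries these ranges were 16.5 to 50.2 CPM and 18.9 to 54.6 CPM, with medians of 30.6 and 38.9, so that the groups overlapped almost throughout. The estimate of the change in Cdk2 was 0.54 ± 0.24 on the log2 scale in B6 cells (95% interval 0.038 to 1.04, adjusted p = 0.0717 by edgeR) and 0.20 ± 0.26 in NZB cells (95% interval -0.34 to 0.73, adjusted p = 0.545 by edgeR). Without the 3 libraries the estimates were 0.54 (adjusted p = 0.0305 by edgeR) and 0.58 (adjusted p = 0.0494 by edgeR). The NZB one then lacks its highest resting and its lowest activated library, so NZB calls gained without the 3 libraries support no rise. With the library set as a term over all libraries the estimates were 1.00 (adjusted p = 0.00599 by edgeR) and 0.46 (adjusted p = 0.106 by edgeR), and without the 3 libraries as well 0.83 (adjusted p = 0.0134 by edgeR) and 0.69 (adjusted p = 0.0162 by edgeR).

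Of the CIP/KIP inhibitors, Cdkn1b, which encodes p27 and is known for holding lymphocytes in quiescence, was the only one of the 10 genes to fall. It stood at 23.6 to 30.9 CPM in resting B6 cells (median 27.2) and at 6.40 to 9.58 CPM in activated ones (median 9.04). In NZB cells it stood at 16.9 to 56.8 CPM at rest (median 33.9) and at 4.64 to 14.4 CPM after activation (median 7.72), with no overlap in either haplotype. The lowest resting value rests on 1 count in the small library, and the other 5 resting NZB libraries stood at 26.5 to 56.8 CPM. Cdkn1b changed by a log2 fold change of -1.67 ± 0.21 (adjusted p = 5.81e-07 by edgeR) in B6 cells and -2.11 ± 0.22 (adjusted p = 2.88e-08 by edgeR) in NZB cells, which is 3.18-fold and 4.32-fold lower. Both calls held in all 24 fits that left out 1 library and in all 11 other fits.

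Cdkn1a, which encodes p21 and is a known target of p53, moved the other way in B6 cells. It ranged from 34.1 to 58.0 CPM in resting B6 cells (median 51.6) and from 95.5 to 209 CPM in activated ones (median 140), with no overlap. That is a log2 fold change of 1.54 ± 0.40 (adjusted p = 0.00257 by edgeR). In NZB cells Cdkn1a ranged from 0 to 229 CPM at rest (median 38.9) and from 98.4 to 240 CPM after activation (median 138). The resting NZB libraries fell apart: replicates 1, 3 and 4 held 31.0, 30.9 and 46.7 CPM and replicate 2 no count, whereas replicates 5 and 6 held 190 and 229 CPM, within the activated range. Over all NZB libraries the change in Cdkn1a was 0.66 ± 0.41 (95% interval -0.18 to 1.49, adjusted p = 0.175 by edgeR). Without resting replicate 6 it was 1.16 (adjusted p = 0.0145 by edgeR), and without the 3 libraries 1.22 ± 0.40 (adjusted p = 0.0132 by edgeR). Resting replicate 6 was the highest resting NZB library for Cdkn1a and activated replicate 6 the lowest activated one (98.4 CPM). Leaving them out enlarges the rise by construction, so the calls gained that way support no rise. Over the 11 other fits the NZB change in Cdkn1a ranged from 0.62 to 1.46. It was called in 3 of them, with adjusted p down to 0.00269 by edgeR: without the 3 libraries, with the library set as a term, and with both. Within the sets of libraries of like reads per UMI, the NZB difference was 1.98 and 2.37 in the sets with 1 resting library each and 0.42 in the set that holds resting replicates 4, 5 and 6 (and replicate 2, left out of these values for its depth).

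Cdkn2c, which encodes the INK4 inhibitor p18, rose in both haplotypes. It ranged from 9.11 to 16.1 CPM in resting B6 cells (median 14.1) and from 33.6 to 58.2 CPM in activated ones (median 47.2). NZB libraries ranged from 0 to 19.3 CPM at rest (median 11.3) and from 30.8 to 87.7 CPM after activation (median 59.1). The groups did not overlap in either haplotype. The lowest resting NZB value is a count of 0 in the small library, which allows up to 50.8 CPM. The other resting NZB libraries stood at 7.33 to 19.3 CPM. The log2 fold change of 1.77 ± 0.24 (adjusted p = 1.19e-06 by edgeR) in B6 cells, a rise of 3.40-fold, was the largest estimate among the 10 genes there, and that in NZB cells was 2.22 ± 0.26 (adjusted p = 1.14e-07 by edgeR), 4.67-fold. In NZB cells only the estimate of Ccne1 (2.30) was larger. Within the 1 set of libraries that held both B6 states (4 resting and 1 activated), 9 of the 10 genes were higher in the activated library, by 0.71 (Ccnd3) to 2.22 (Cdkn1a) on the log2 scale, and Cdkn1b differed by -1.99. With the library set as a term and without the 3 libraries, 7 genes were called higher in B6 cells (16.3% of all genes), where Ccnd3 (adjusted p = 0.182) and Ccne2 (adjusted p = 0.308) were not called by edgeR, and 9 in NZB cells (24.2% of all genes). Those NZB calls include Ccne2, Cdk2 and Cdkn1a without their highest resting library, so they support no rise of these genes.

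**Figure D2:**
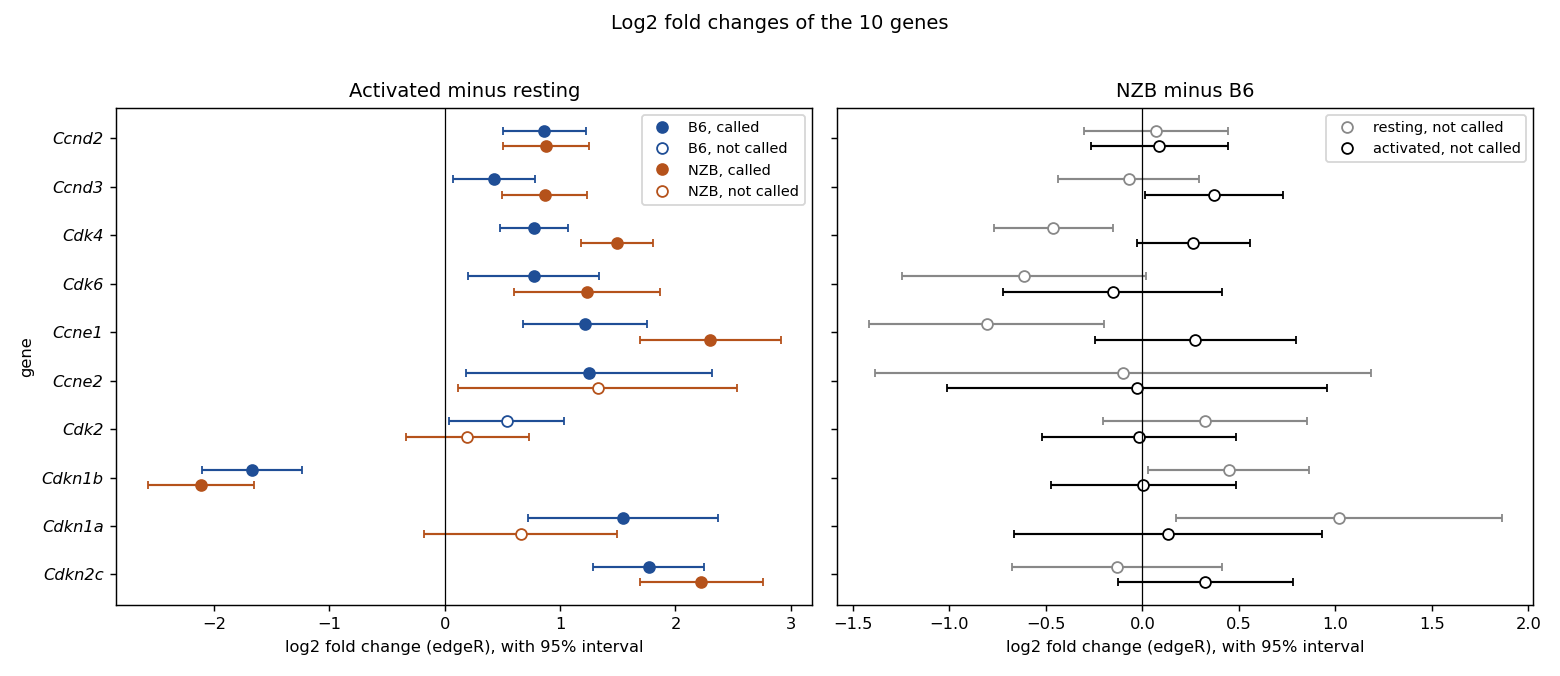
Log2 fold changes with 95% intervals from edgeR for the 10 genes, activated minus resting in each haplotype (left) and NZB minus B6 in each state (right), with called genes filled and others open. Cdkn1b is the only gene left of 0 on activation, and no gene is called between haplotypes.

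Markers of other cell types moved with activation. All 10 granulocyte and precursor genes fell in both haplotypes, and their summed level was 736 to 8626 CPM in resting and 14.2 to 105 CPM in activated B6 libraries, and 463 to 22978 and 9.29 to 204 CPM in NZB libraries. Of 10 erythroid genes 9 were counted and 8 fell, from 246 to 7414 CPM to 19.0 to 181 CPM in B6 libraries and from 105.8 to 3862 CPM to 26.5 to 53.2 CPM in NZB libraries. All 5 of the 7 monocyte and macrophage genes tested fell, from 820 to 2638 CPM to 22.3 to 79.6 CPM in B6 libraries and from 457 to 2810 CPM to 10.8 to 111 CPM in NZB libraries, and C1qa was at 0 in both activated groups. Both CD8 T cell genes rose, from 52.3 to 111 CPM to 161 to 405 CPM in B6 libraries and from 16.9 to 142 CPM to 82.0 to 534 CPM in NZB libraries. Of 3 NK cell genes tested, 2 rose and 1 fell in B6 cells and 1 rose and 1 fell in NZB cells, with sums of 31.2 to 49.8 CPM at rest and 77.1 to 438 CPM after activation in B6 libraries and of 22.9 to 67.8 and 5.75 to 159 CPM in NZB libraries. Of 3 platelet genes tested, 2 rose in both haplotypes, from 8.27 to 53.4 CPM to 72.5 to 504 CPM in B6 libraries and from 10.5 to 50.8 CPM to 18.0 to 244 CPM in NZB libraries. Ppbp, also on the platelet list, held 28 UMI counts over all libraries and was at 0 in the resting B6 group. The B cell list, none of whose 6 genes was called, stood at 263 to 1258 and 563 to 1036 CPM in resting and activated B6 libraries and at 239 to 1452 and 102 to 1326 CPM in NZB libraries. The part of these cells in the changes of the 10 genes was not tested.

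Ratios of members within a library do not depend on the scaling, so 4 pairs were compared in 4 comparisons (exact two-sided permutation test on log2 ratios, 0.5 added to both counts, 16 tests, with 0.00216 as the smallest p for 6 against 6). The ratio of Cdkn1b to Cdkn1a, the CIP/KIP inhibitors, changed most. It was 0.408 to 0.909 in resting B6 libraries (median 0.522) and 0.0313 to 0.0976 in activated ones (median 0.0664). In NZB libraries it was 0.165 to 3.00 at rest (median 0.815) and 0.0269 to 0.128 after activation (median 0.0507). No activated library reached a resting one in either haplotype, and the resting value of 3.00 rests on 1 count against 0 in the small library. The mean log2 ratio changed by -3.20 in B6 cells and by -3.66 in NZB cells, a 9.19-fold and 12.6-fold difference (exact permutation p = 0.00216 and adjusted p = 0.0173 in both), and by -3.69 in NZB cells without the 3 libraries.

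The ratios of Ccnd2 to Ccnd3, of Cdk4 to Cdk6 and of Ccne2 to Ccne1 passed the test in no comparison over all libraries. Ccnd2 to Ccnd3 moved by 0.48 on the log2 scale on activation of B6 cells (exact permutation p = 0.0541, adjusted p = 0.289) and by -0.02 in NZB cells (exact permutation p = 0.924). Cdk4 to Cdk6 moved by 0.05 in B6 cells (exact permutation p = 0.792) and by 0.11 in NZB cells (exact permutation p = 0.703). At rest Cdk4 to Cdk6 was 0.34 higher in NZB cells on the log2 scale (exact permutation p = 0.132), and 0.51 higher without resting NZB replicate 6 (exact permutation p = 0.00216, unadjusted, the smallest possible for 6 against 5) or 0.42 without the 3 libraries (exact permutation p = 0.00952, unadjusted). Resting NZB replicate 6 had the lowest ratio of its group (4.95, against 5.63 to 8.07 in resting B6 libraries). Leaving it out raises the resting NZB ratio by construction, and the p-values gained that way support no difference. The highest resting NZB ratio, 13, rests on 6 counts against 0 in the small library. Ccnd2 to Ccnd3 in B6 cells reached an unadjusted exact permutation p of 0.0195, 0.0260 and 0.0368 without resting replicate 2, resting replicate 3 or activated replicate 4. Resting replicates 2 and 3 held the highest resting ratios (0.723 and 0.689) and activated replicate 4 the lowest activated one (0.524). Leaving out any of them enlarges the difference by construction, so these p-values are no support for it.

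**Figure D3:**
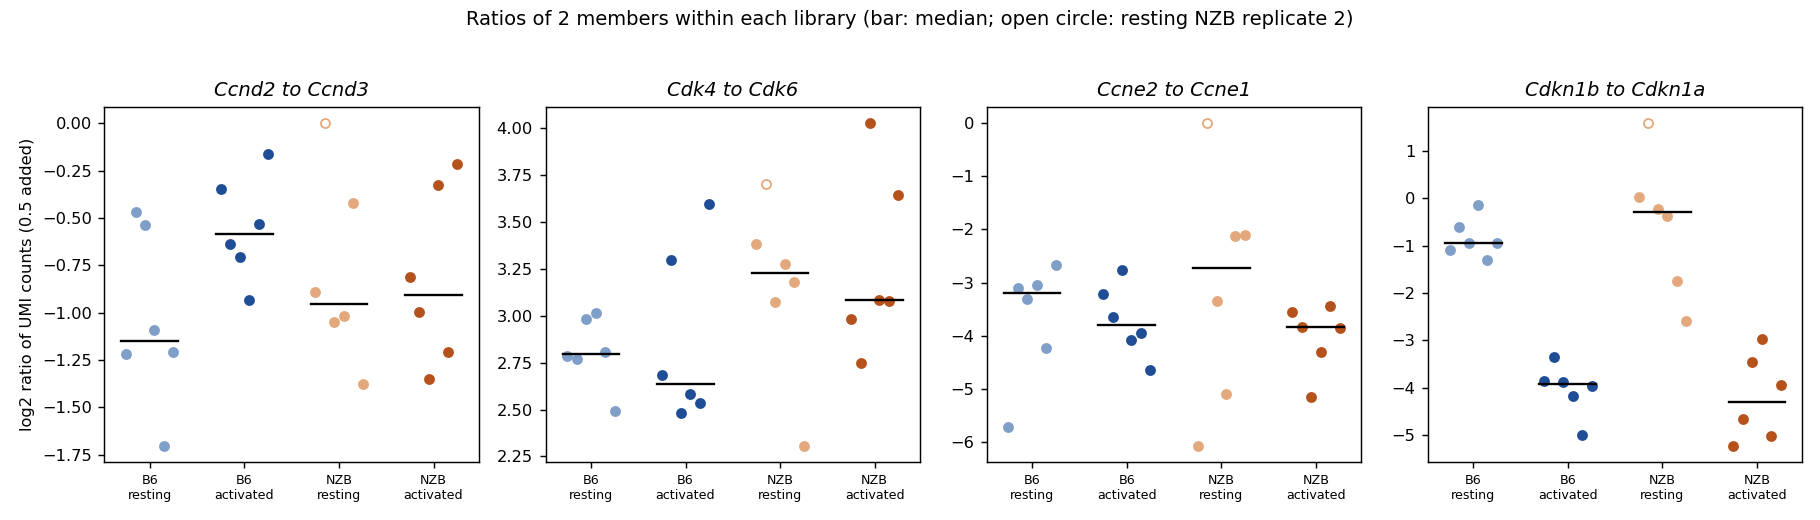
Log2 ratios of the UMI counts of 4 pairs of members in each library, with the group median as a bar and resting NZB replicate 2 as an open circle. The ratio of Cdkn1b to Cdkn1a separates activated from resting libraries in both haplotypes, and the other 3 ratios overlap between all groups.

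At rest, none of the 10 genes was called between NZB and B6 cells by edgeR, where 2.76% of all genes were, and none by DESeq2. At an unadjusted p under 0.05, 4 of the 10 stood out, Ccne1 and Cdk4 (lower in NZB) and Cdkn1a and Cdkn1b (higher), where 20.8% of all genes did. The estimate for Ccne1 was -0.81 (95% interval -1.42 to -0.20, adjusted p = 0.118 by edgeR) and that for Cdk4 was -0.46 (95% interval -0.77 to -0.15, adjusted p = 0.0788 by edgeR). The estimate for Cdkn1b was 0.45 (95% interval 0.031 to 0.86, adjusted p = 0.206 by edgeR), and that for Cdkn1a, carried by replicates 5 and 6, was 1.02 (adjusted p = 0.152 by edgeR) and 0.57 without the 3 libraries. Leaving out those libraries brought 3 genes below the threshold, where 3.88% of all genes were called lower: Ccne1 at -1.0 (adjusted p = 0.0443 by edgeR), Cdk4 at -0.53 (adjusted p = 0.0422 by edgeR) and Cdk6 at -0.96 (adjusted p = 0.0463 by edgeR). Without resting NZB replicate 6 alone only Cdk4 was called (log2 -0.55, adjusted p = 0.0386 by edgeR), where 3.46% of all genes were called lower. With a term for the library set in the fit without the 3 libraries, none of the 3 was called, although the estimates were about as large: -1.03 for Ccne1 (adjusted p = 0.0696), -0.57 for Cdk4 (adjusted p = 0.0520) and -0.95 for Cdk6 (adjusted p = 0.0844), all by edgeR. Replicate 6 was the highest resting NZB library for all 3 genes, so leaving it out lowers the resting NZB level by construction. Within the sets that hold both haplotypes, and without the small resting NZB replicate 2, the difference in Cdk4 was -0.43 (4 B6 libraries and 1 NZB) and -0.67 (2 and 3), that in Ccne1 -1.02 and -0.68, and that in Cdk6 -0.90 and -0.93, whereas that in Cdkn1a was -0.50 and 1.12, in opposite directions.

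Cycling genes were also summed at rest. The summed level of 12 genes of S, G2 and M phase was 481 to 1067 CPM in resting B6 libraries (median 783) and 407 to 1031 CPM in resting NZB libraries (median 522), and none of the 12 was called by edgeR, whereas 8 were lower in NZB cells without the 3 libraries. The granulocyte and erythroid lists had medians of 3427 and 1491 CPM in resting B6 libraries and of 923 and 262 CPM in resting NZB libraries. Over all libraries 0 of 10 granulocyte genes and 1 of 9 erythroid genes were called lower in resting NZB cells by edgeR, and without the 3 libraries, the fit that called Ccne1, Cdk4 and Cdk6, 8 of 10 and 9 of 9 were. Replicate 6, the highest resting NZB library for Ccne1, Cdk4, Cdk6 and Cdkn1a, was also the highest for all 3 lists. The part of these cells in the differences at rest was not tested.

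**Figure D4:**
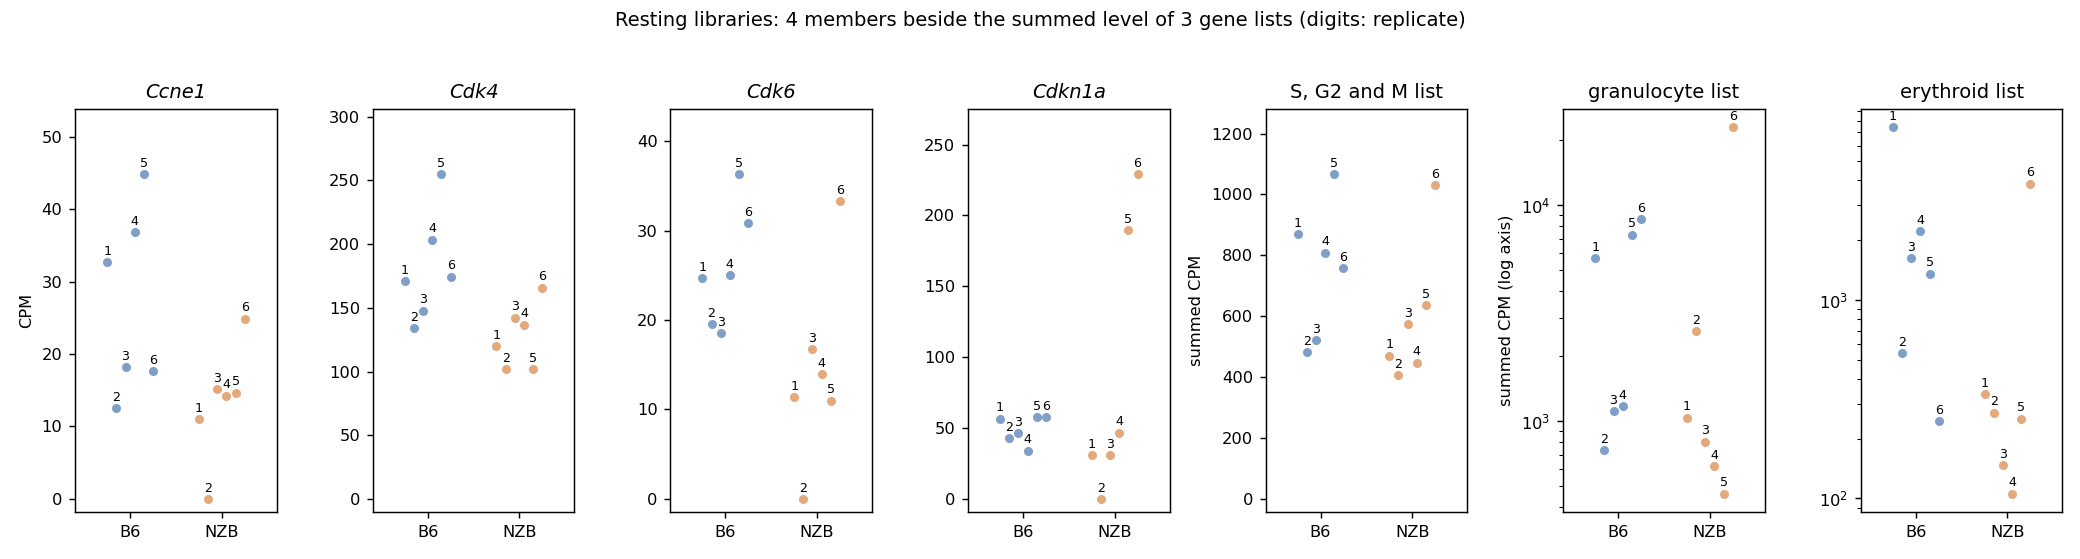
Level of Ccne1, Cdk4, Cdk6 and Cdkn1a (CPM, linear axes) and summed CPM of 3 gene lists (the last 2 panels on a log axis) in the 12 resting libraries, each marked by its replicate number. NZB replicate 6 is the highest NZB library in every panel, and Cdkn1a is high in NZB replicates 5 and 6 alone.

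After activation, none of the 10 genes was called between haplotypes, as none of the 10566 genes was by edgeR or DESeq2. At an unadjusted p under 0.05, 327 genes (3.09%) stood out in edgeR, and among the 10 only Ccnd3 (log2 0.37, 95% interval 0.013 to 0.73, adjusted p = 1 by edgeR). The narrowest interval was that of Cdk4 (-0.028 to 0.56), followed by Ccnd2 (-0.27 to 0.44), and the widest were those of Ccne2 (-1.01 to 0.96) and Cdkn1a (-0.67 to 0.93).

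The difference between the responses of NZB and B6 cells (the interaction) was called for none of the 10 genes, as for none of all genes by edgeR, with 14.3% at an unadjusted p under 0.05, and for 1 gene, not among the 10, by DESeq2. The largest differences beside their errors were those of Cdk4 and Ccne1, which rose more in NZB cells. That of Cdk4 was 0.73 ± 0.21 (95% interval 0.30 to 1.15, adjusted p = 0.207 by edgeR), and that of Ccne1 was 1.08 ± 0.39 (95% interval 0.28 to 1.88, adjusted p = 0.235 by edgeR). Both had the lower mean level in NZB cells at rest and the higher one after activation: Cdk4 stood at 181 ± 43.4 and 128 ± 25.2 CPM (SD, n = 6) in resting B6 and NZB cells and at 309 ± 32.0 and 372 ± 62.1 CPM in activated ones. Without the 3 libraries the difference in Cdk4 was 0.85 (adjusted p = 0.0483 by edgeR), where 0.878% of all genes had a higher response called, and that in Ccne1 was 1.41 (adjusted p = 0.0557 by edgeR). With the library set as a further term the difference in Cdk4 was 0.88 (adjusted p = 0.116 by edgeR), about as large and not called. The 3 libraries include the highest resting NZB library for Cdk4 (replicate 6, 166 CPM) and an activated one level with the lowest (replicate 6, 297.9 CPM, beside 297.6 CPM in replicate 4), so leaving them out enlarges this difference by construction, and the call gained that way is no support for it.

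The genes around the 10 members were described from lists by function, whose counts stand beside 22.4% of all genes higher and 24.5% lower in B6 cells and 25.2% and 28.4% in NZB cells. All 12 genes of S, G2 and M phase rose in both haplotypes, with medians of 1.88 in B6 cells and 2.52 in NZB cells. The rises named from this list are those of Top2a, which encodes topoisomerase II alpha, at 2.63 ± 0.28 in B6 cells and 3.31 ± 0.30 in NZB cells, and of Ccna2, which encodes cyclin A2, at 2.49 ± 0.31 and 3.27 ± 0.36. Of 17 genes of RB, the E2F factors and the DREAM complex, 9 rose and 1 fell in B6 cells and 9 rose and 2 fell in NZB cells. E2f7 (2.60 ± 0.37 and 2.39 ± 0.41) and E2f2 (1.69 ± 0.18 and 1.92 ± 0.20) rose, and E2f5 fell (-1.16 ± 0.31 and -1.60 ± 0.32).

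Of 16 genes that activate CDKs or turn over G1 regulators, 7 rose and 3 fell in B6 cells and 8 rose and 4 fell in NZB cells. Whether these shares differ from those of all genes was not tested. Cks1b, a cofactor of the SCF-SKP2 ubiquitin ligase that marks p27 for degradation, rose by 1.56 ± 0.25 and 2.40 ± 0.28, and Wee1, the kinase that inhibits CDK1, by 1.31 ± 0.35 and 1.37 ± 0.39. Skp2, for which this ligase is named, also rose (1.03 ± 0.28 and 1.86 ± 0.33). Skp1, the adaptor of the same ligase, fell (-1.56 ± 0.34 and -1.07 ± 0.35), as did Ambra1 (-0.44 ± 0.09 and -0.49 ± 0.10), which targets D-type cyclins for degradation. Skp1 was low, at 4.96 to 8.98 CPM in resting and 1.53 to 3.64 CPM in activated B6 libraries, and its highest resting NZB value (33.9 CPM) came from the small library. Of 14 p53 pathway genes, 6 rose and 3 fell in B6 cells and 6 rose and 5 fell in NZB cells. Phlda3 (2.35 ± 0.29 and 3.40 ± 0.33) and Gtse1 (2.12 ± 0.27 and 2.76 ± 0.30) rose, and Plk2 (-2.97 ± 0.35 and -3.50 ± 0.41) and the proapoptotic Bbc3 (-2.10 ± 0.19 and -2.45 ± 0.20) fell, so that the list did not move one way.

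The other G1 cyclins and inhibitors were fewer. Of 5 listed, 4 were tested, of which 2 rose in both haplotypes and 1 fell in B6 cells and 2 in NZB cells. Ccnd1, the third D-type cyclin, fell (log2 fold change -4.07 ± 0.43 and -4.20 ± 0.48), from 7.09 to 17.5 CPM at rest to 0 to 1.79 CPM after activation in B6 libraries. Cdkn2a, which encodes p16 and p19ARF, transcripts that share their 3′ end, rose by 3.24 ± 0.38 and 2.48 ± 0.39, from 0 to 1.25 CPM to 5.55 to 7.93 CPM in B6 libraries, and Cdkn2d, which encodes the INK4 inhibitor p19, by 0.45 ± 0.16 and 0.54 ± 0.17. Of 14 quiescence genes and upstream regulators, 12 were tested and none rose, with 9 lower in B6 cells and 10 in NZB cells (medians -1.65 and -2.03). The list is not of quiescence genes alone. The 9 lower in B6 cells include Myc (-0.79 ± 0.23, adjusted p = 0.00632 by edgeR), which was not called in NZB cells (-0.25 ± 0.24). Klf4 (-7.57 ± 0.37 and -6.75 ± 0.36) and Tob1 (-3.01 ± 0.26 and -3.38 ± 0.27), both known as inhibitors of T cell proliferation, had the largest falls of the list in B6 cells.

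**Figure D5:**
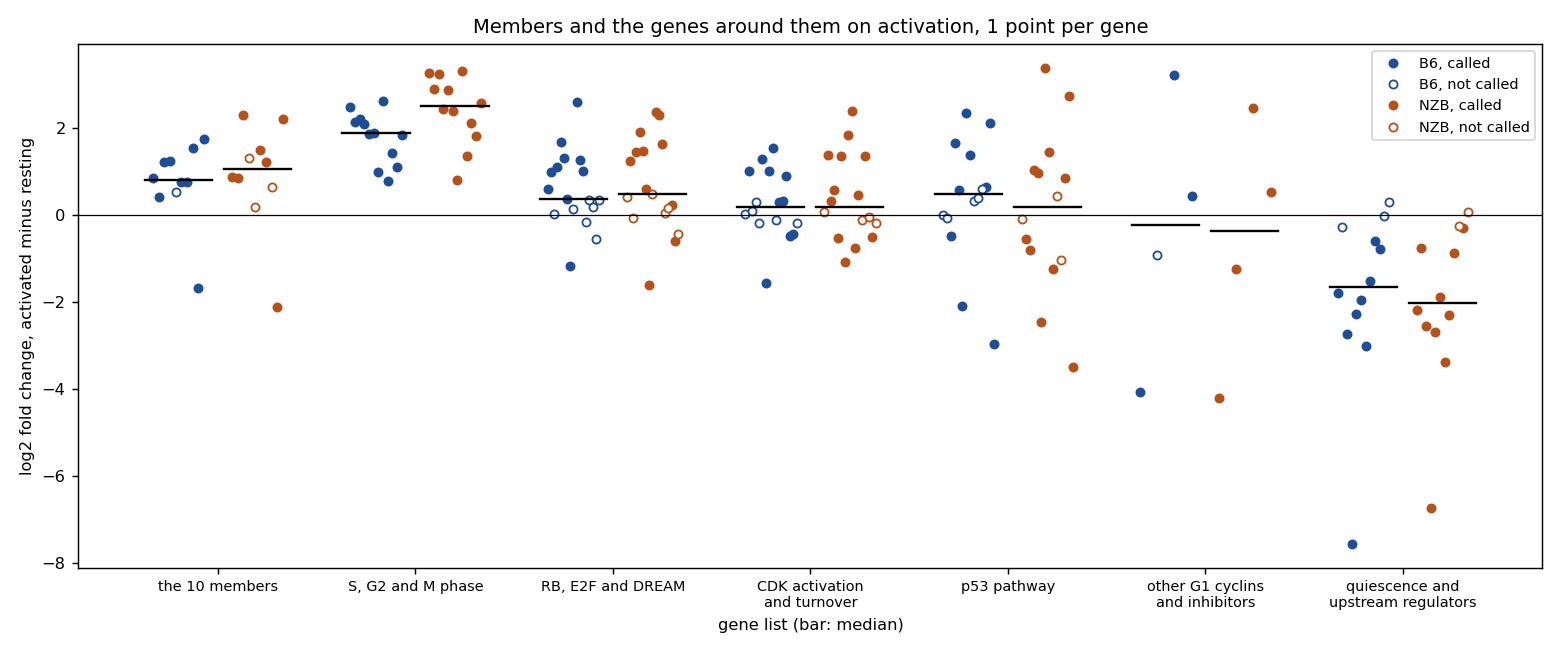
Log2 fold change on activation (edgeR), 1 point per gene, for the 10 members and 6 lists of related genes in each haplotype, with the list median as a bar and called genes filled. All 12 S, G2 and M phase genes lie above 0, and in the list of quiescence genes and upstream regulators no called gene does.

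For each member, the genes with the most similar profile were sought over the 23 libraries of at least 500000 UMI counts, as the smallest root mean square difference of centred log2 CPM. Ccne1 lay closest to Dut (0.22) and Rrm1 (0.23), which encode enzymes of deoxynucleotide supply, and Ccne2 to E2f1 (0.56, beside a spread of 1.01 of Ccne2 itself). Cdk4 lay closest to the proteasome subunit gene Psmd13 (0.14) and to Chaf1b (0.14), a subunit of chromatin assembly factor 1, and Cdkn2c to Ncapd2 (0.25), a condensin subunit. Cdkn1b lay closest to Cited2 (0.28) and Pik3r1 (0.31), Cdk6 to Ndc1 (0.30) and Mms22l (0.31), Ccnd3 to Rex1bd (0.17) and Eif5a (0.17), Cdk2 to Pcmt1 (0.25) and Cdkn1a to Cenpl (0.46). Hdac1 (0.26) was among the 2 nearest to Ccnd2. The 23 libraries include resting and activated ones.

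In GRCm39, Cdkn1b lies on chromosome 6 (134897364 to 134902476, plus strand), Cdkn1a on chromosome 17 (29309936 to 29319701, plus strand), Cdkn2c on chromosome 4 (109517957 to 109524386, minus strand), Cdk4 on chromosome 10 (126895180 to 126903789, plus strand) and Ccne1 on chromosome 7 (37797404 to 37808264, minus strand). Reads were counted over the 3′ ends, and the last 1000 bases of 6 of the 10 genes overlap another gene on the opposite strand. For 3 that gene is protein-coding: Tspan31 for Cdk4 (4085 UMI counts in all), Bysl for Ccnd3 (710) and Ints8 for Ccne2 (827). Whether the counting used strand is not given in the sources used here; without it, reads of these pairs cannot be told apart.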

How the data were processed

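Bulk MARS-seq libraries (3′ ends of polyadenylated RNA, each molecule tagged with a UMI) were made from 24 samples. RNA input was 60 ng according to the methods and 30 ng according to the labels. The authors trimmed reads with cutadapt, dropped those under 30 bases, mapped the rest with STAR to 3′ windows of 1000 bases (GRCm39, Ensembl release 106), counted them with htseq-count and deduplicated them with a correction for UMI saturation. Tool versions are not given in the sources used here. They deposited these whole-number UMI counts, used here, and a second table of larger counts, used as an alternative. 1 column of the second table matched no sample and was not used.

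Counts were scaled by TMM, filtered with filterByExpr and fitted over all 24 libraries with edgeR 4.0.16 (R 4.3.3), with Benjamini-Hochberg adjustment. SE is the log2 fold change divided by the square root of F, and 95% intervals use the t distribution with the degrees of freedom of the test. The code was tested on simulated data. Alternatives were DESeq2 1.42.0, other scalings and filters, the second table, replicate blocks, a term for library set (3 sets of 8 libraries by reads per UMI) and leaving out libraries. No pair of libraries in a group agreed within counting noise (lowest chi-square for a pair, divided by its degrees of freedom, 2.77). The members and lists were chosen with earlier results of these data known. Named genes are all members, the 2 largest rises and 2 largest falls of each list among genes called in both haplotypes (by the change in B6 cells), and the 2 nearest profiles of each member at a mean of at least 10 CPM. Skp2 and Myc are named in addition. One such profile is not reported here.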

Additional observations from a re-analysis of the deposited data

How the results depend on the processing

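In B6 cells, Ccnd2, Cdk4, Ccne1, Cdkn1a and Cdkn2c (higher) and Cdkn1b (lower) kept their calls on activation in all 24 fits that left out 1 library and all 11 other fits, and in NZB cells Ccnd2, Cdk4, Ccne1, Cdkn2c and Cdkn1b did. The count of members higher in B6 cells was 5 with DESeq2 (8.55% of 25030 genes), 4 at a log2 fold change of at least 1 (7.06% of all genes) and 5 to 9 when 1 library was left out. According to the methods, isolated T cells were split into resting and activated ones. Some label numbers occur in both states, such as 13 and 14 in B6 cells, and what they mark is not given. Correlations between libraries of the same label number were -0.16 to 0.25, which does not decide whether these samples were paired. With the replicate block by label number 5 members were higher in B6 cells and 4 in NZB cells (19.4% and 19.0% of all genes), and by title number 6 and 6 (20.6% and 22.8%). With the block by label number Cdk6 was not called in B6 cells (adjusted p = 0.103 by edgeR) or NZB cells (log2 0.78, adjusted p = 0.0998), nor Ccnd3 in NZB cells (log2 0.53, adjusted p = 0.0510). At rest 3 members were called without the 3 libraries, and 0 to 1 without 1 library. In the interaction 1 was called without the 3 libraries. The causes were not tested. Ccne2 had at most 29 counts in a library, and the stricter filter removed it.

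Estimates that did not pass the test changed sign in places. The activated difference in Cdkn1b was -0.011 with DESeq2, -0.0070 with median-of-ratios size factors, -0.023 without a filter, -0.015 with the stricter filter, -0.10 with the second table, -0.021 with only the compared libraries, -0.24 with the library set as a term, -0.18 with that term and without the 3 libraries, and -0.19 to 0.15 without 1 library. That in Ccne2 was 0.15 with the second table, 0.13 without the 3 libraries, 0.35 with the set term as well and -0.33 to 0.19 without 1 library. That in Cdk2 was 0.13 without the 3 libraries and -0.12 to 0.14 without 1, and that in Cdkn1a was -0.32 with the set term, -0.22 also without the 3 libraries and -0.021 to 0.27 without 1. The interaction of Ccnd2 was -0.014 with the second table, -0.030 and -0.057 with the replicate block by label and title number, -0.17 with the set term, -0.12 also without the 3 libraries and -0.081 to 0.13 without 1. That of Ccne2 was -0.29 and -0.12 with those blocks and -0.26 to 0.90 without 1 library, and that of Cdk2, -0.34 over all libraries, was 0.042 without the 3. At rest, Ccnd2 ranged from -0.027 to 0.15 and Ccne2 from -0.93 to 0.24 without 1 library. The ratio Ccne2 to Ccne1 moved by 0.56 on activation of B6 cells with the second table (-0.45 to 0.16 without 1 library), by 0.10 in NZB cells without the 3 libraries (-0.90 over all) and by -0.48 at rest without them (0.55 over all, -0.070 to 1.14 without 1). The ratio Cdk4 to Cdk6 moved by -0.14 in NZB cells with the second table, by -0.043 without the 3 libraries and by -0.061 to 0.22 without 1, and in B6 cells by -0.093 to 0.13. Without 1 library, Ccnd2 to Ccnd3 ranged from -0.15 to 0.13 in NZB cells, and Cdkn1b to Cdkn1a from -0.14 to 0.69 at rest and from -0.42 to 0.025 after activation.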
